A study of Mus musculus with 12 samples.

Results

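The miR-30 family was followed in 12 small RNA libraries of the mouse hippocampus. The 5 members miR-30a, miR-30b, miR-30c, miR-30d and miR-30e were chosen by name, and a read was counted for a member when its whole sequence matched the annotated hairpin of that member exactly. They are 5 of the 705 miRNAs with a read, and their 5′ and 3′ arms are 10 of the 1065 arms with a read. All 10 arms had reads in every library, and all 10 passed the filter on low counts that 469 arms passed. Together they held 316919 of 30022027 miRNA counts. The family had been picked with the levels of its arms and their ratio in these libraries in view, so the order of the levels and the ratios are given as a description. The tests after ECS and between the time courses use the same counts and are no independent support.

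Each library came from the hippocampus of an individual male C57BL/6NCrl mouse. Untreated mice (NT) gave 2 libraries, and mice given electroconvulsive shock (ECS), a current that depolarizes neurons across the brain, gave 2 libraries for each of 5 waiting times, namely 0.5 h, 1 h, 3 h, 6 h and 24 h. No sham-treated group is among the 12 libraries, and no transgene or drug is named for any group. The libraries of replicate 1 (NT-1, 0.5h-1 and so on) form the first time course and those of replicate 2 the second, and the study describes a batch effect between these replicates. Whole hippocampus was used, so fewer cells of a type and less RNA per cell cannot be told apart.

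A miRNA is cut from a hairpin in 2 steps, by Drosha in the nucleus and Dicer in the cytoplasm, which leaves a duplex of a 5′ arm (5p) and a 3′ arm (3p). An Argonaute protein keeps one strand as the guide and the other is discarded. The guide finds messenger RNAs mainly through its seed, bases 2 to 8 from its 5′ end, so members that share a seed share most predicted targets, and a shift of the 5′ end by a base gives another seed. The miR-30 family is found in many tissues, and its 5p arms are the usual guides.

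The mature forms of miR-30a, miR-30c and miR-30e are shown to make visible what the members share and where they part. They are from RefSeq (GRCm38.p6), with the seed in capitals.
miR-30a-5p: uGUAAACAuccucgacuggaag
miR-30c-5p: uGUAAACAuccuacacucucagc
miR-30e-5p: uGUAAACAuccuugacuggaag
miR-30a-3p: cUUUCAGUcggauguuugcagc
miR-30e-3p: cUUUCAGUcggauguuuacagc
miR-30c-1-3p: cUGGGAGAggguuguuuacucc
miR-30c-2-3p: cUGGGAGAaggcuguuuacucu
The 5p arms carry 1 seed, GUAAACA. The 3p arms of miR-30a and miR-30e share the seed UUUCAGU, and both miR-30c loci have the 3p seed UGGGAGA. In the first 22 bases miR-30a-5p and miR-30e-5p differ at 1 base, C13T counted from 1 at the 5′ end and written in the letters of the tags, miR-30a first. The 3p arms of the same pair differ at 1 base too, G18A. The 5p arms of miR-30b and miR-30c are alike over their first 18 bases, so the shortest tags cannot separate them: 18 reads were shared by miR-30b-5p and miR-30c-5p, and 3 by miR-30a-3p and miR-30e-3p.

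Among the 1065 arms, 6 had a most abundant tag with bases 2 to 8 identical to those of miR-30a-5p. They were the 5 members and miR-384-5p, a miRNA of the X chromosome that differs from the family beyond the seed.
miR-384-5p: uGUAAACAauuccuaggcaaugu
miR-384-3p: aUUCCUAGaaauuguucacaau

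The members are encoded at 6 loci in 3 pairs (GRCm38). Mir30a (chromosome 1, 23272269 to 23272339, plus strand) overlaps no other gene of GENCODE on either strand and lies 19361 bases before Mir30c-2 (chromosome 1, 23291701 to 23291784, plus strand), which overlaps an exon of the lincRNA Gm27028. Mir30e (chromosome 4, 120772606 to 120772697, minus strand) and Mir30c-1 (chromosome 4, 120769534 to 120769622, minus strand) are 2983 bases apart in introns of Nfyc, the gene of a subunit of the CCAAT-binding factor NF-Y. The miRNA gene Mir30f is annotated on the opposite strand over Mir30e, and 0 reads matched it. Mir30d (chromosome 15, 68341208 to 68341289, minus strand) overlaps an exon of the lincRNA Gm20732, and Mir30b (chromosome 15, 68337415 to 68337510, minus strand) lies 3697 bases away and overlaps in part an exon of the processed transcript Gm26621. Mir384 is on the X chromosome (105344282 to 105344369, minus strand). The 5p arms of the miR-30c loci are identical, but their 3p arms are not, and 22390 reads matched the 3p arm of Mir30c-2 alone against 1274 for Mir30c-1.

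Libraries held between 1897490 and 7657222 accepted reads, of which between 439336 and 4282006 were miRNA counts. NT-1 stood apart: 51.4% of its miRNA reads were only 18 or 19 nt long, against 4.54% to 16.9% in the other libraries of the first time course and 0.911% to 3.78% in the second. The tissue label was checked against markers. The neural miRNAs miR-124, miR-9, miR-128, miR-132 and miR-138 were all detected and together made up 6.08% to 31.2% of the miRNA counts, highest in NT-1. The vessel list (miR-126a, miR-143 and miR-145a, all 3 detected) ranged from 6.30% to 14.5% in the first time course and from 0.565% to 1.65% in the second. Nearly all of it was miR-143, with 965398 counts over all libraries, against 6255 for miR-126a and 1464 for miR-145a. All 4 blood miRNAs (miR-142, miR-144, miR-223 and miR-451a) were detected, at 0.0244% to 1.15% in all. Oligodendrocyte miRNAs (both of miR-219a and miR-338) made up 0.273% to 1.82%, muscle miRNAs (all 3 of miR-1a, miR-133a and miR-206) 0.258% to 1.69%, and the liver miRNA miR-122 at most 0.0321%. These lists too were led by 1 miRNA. Over all libraries miR-219a had 334788 counts and miR-338 2179, while miR-1a had 313989, miR-206 5285 and miR-133a 88.5. In the blood list miR-142 had 44261 and the next, miR-144, had 6451.

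The family held 1.19% ± 0.605 (SD, n = 12) of the miRNA counts. In the first time course it held 2.67% in NT-1, 1.21% in 0.5h-1, 1.23% in 1h-1, 1.80% in 3h-1, 1.06% in 6h-1 and 1.22% in 24h-1. In the second it held 0.671% in NT-2, 0.768% in 0.5h-2, 1.42% in 1h-2, 1.16% in 3h-2, 0.462% in 6h-2 and 0.558% in 24h-2. NT-1 had the highest share of all libraries, while NT-2 was below all but 6h-2 and 24h-2, so the untreated libraries lay near opposite ends of the range. The 95% Wilson interval of each share was at most 0.0612 percentage points wide, which covers counting error only.

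miR-30a-5p, the most abundant arm of the family, supplied 76.8% of its 5p counts. Its level in CPM, the counts in 1000000 miRNA counts, was 16441 in NT-1 and between 5340 and 9897 in the other libraries of the first time course. In the second it was 2627 in NT-2 and between 3046 and 8208 after ECS. The time courses overlapped, and miR-30a-5p ranked between 11th and 39th of all arms depending on the library.

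miR-30d-5p followed with 16.1% of the 5p counts. Its level ranged from 1285 to 3329 CPM in the first time course (median 1503) and from 410 to 1774 CPM in the second (median 847). miR-30a-5p exceeded miR-30d-5p in 12 of 12 libraries, by 2.26 ± 0.384 on the log2 scale (SD, n = 12). miR-30e-5p supplied 6.02% of the 5p counts, with a level between 316 and 2361 CPM in the first time course and between 90.1 and 726 CPM in the second. Its highest value was that of NT-1 and its lowest that of NT-2.

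The remaining 5p arms were scarce. miR-30c-5p made up 0.970% of the 5p counts, with 15.8 to 84.3 CPM in the first time course and 32.5 to 149.9 CPM in the second. miR-30b-5p made up 0.135%, with 3.66 to 14.8 CPM in the first and 7.67 to 14.1 CPM in the second, from 320 counts in all 12 libraries.

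On the 3p side the leading member changed with the library. miR-30a-3p supplied 40.6% of the 3p counts of all libraries, miR-30c-3p 29.4% and miR-30e-3p 28.9%, but libraries of great depth weigh most in these sums. By the median over libraries miR-30c-3p was first with 39.7% (6.74% in NT-1 to 77.5% in 3h-1), ahead of miR-30a-3p with 31.1% (at most 52.5%, in 3h-2) and miR-30e-3p with 25.9% (7.54% in 24h-1 to 61.1% in NT-1). The level of miR-30a-3p ranged from 457 to 1519 CPM in the first time course and from 138 to 1995 CPM in the second. That of miR-30c-3p ranged from 329 to 3453 CPM in the first and from 262 to 731 CPM in the second. That of miR-30e-3p ranged from 157 to 2985 CPM in the first and from 83.2 to 1226 CPM in the second. miR-30d-3p (19.3 to 58.8 CPM, then 6.05 to 19.6 CPM) and miR-30b-3p (2.66 to 43.9 CPM, then 0.487 to 1.69 CPM) were the scarce 3p arms.

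**Figure D1:**
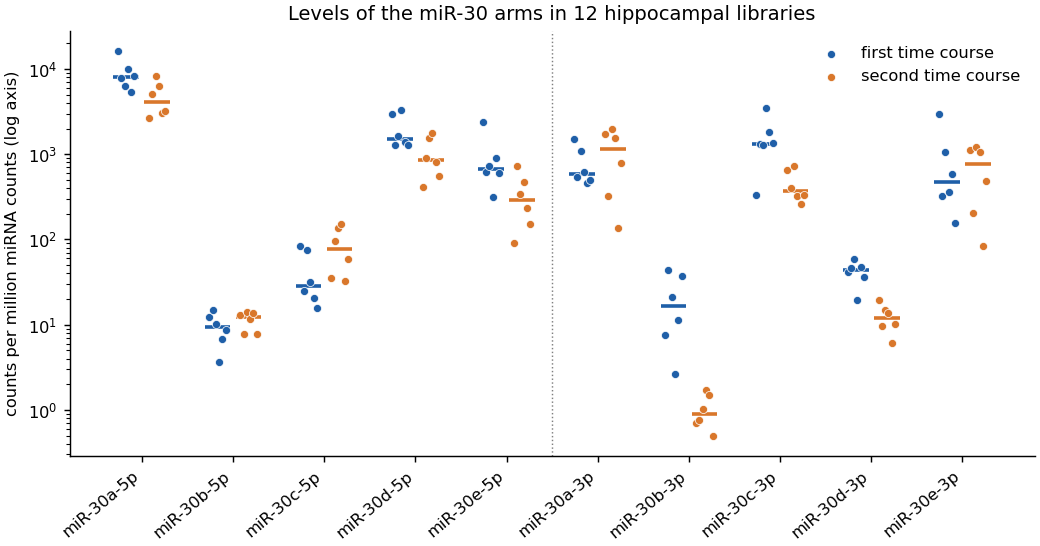
Level of each miR-30 arm in CPM, the counts in 1000000 miRNA counts (log axis), 1 point per library and a bar at the median of the 6 libraries of a time course, 5p arms to the left of the dotted line. The 5p arms of miR-30a, miR-30d and miR-30e lie far above those of miR-30b and miR-30c, and miR-30b-3p is the arm whose time courses do not overlap.

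Ordered by mean level, the arms ran miR-30a-5p, miR-30d-5p, miR-30c-3p, miR-30a-3p, miR-30e-3p, miR-30e-5p, miR-30c-5p, miR-30d-3p, miR-30b-3p and miR-30b-5p. Only some steps in this order exceeded the spread. miR-30a-5p was above miR-30d-5p, and miR-30e-5p above miR-30c-5p, in all 12 libraries. Between them, miR-30d-5p was above miR-30c-3p in 7 of 12 libraries, miR-30c-3p above miR-30a-3p in 7, miR-30a-3p above miR-30e-3p in 10 and miR-30e-3p above miR-30e-5p in 7. The step from miR-30e-5p to miR-30c-5p was 3.18 ± 1.56 on the log2 scale (SD, n = 12). Lower in the order, miR-30c-5p was above miR-30d-3p in 9 of 12 libraries and miR-30d-3p above miR-30b-3p in 11. The scarce arms of miR-30b could not be ordered, since miR-30b-3p was above miR-30b-5p in only 4 of 12 libraries although its mean was higher. These levels mix the amount of RNA with how readily each sequence was cloned, which was not measured.

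The members differed in which arm prevailed. miR-30d was almost wholly 5p: its 5p to 3p ratio of counts was between 20.9 in NT-2 and 172 in 3h-1, and 98.4% of its reads came from the 5p arm. miR-30a favoured 5p in 12 of 12 libraries, with a ratio from 1.51 in NT-2 to 22.1 in 6h-2. miR-30c favoured 3p in 12 of 12 libraries, with a ratio from 0.00916 in 3h-1 (47.5 counts of 5p, 5184 of 3p) to 0.466 in 3h-2 (621.5 and 1334).

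miR-30e and miR-30b had no fixed major arm. For miR-30e the 5p arm had more counts in 5 of 12 libraries. Its ratio in the first time course was 0.791 in NT-1, 1.91 in 0.5h-1, 0.674 in 1h-1, 0.890 in 3h-1, 1.56 in 6h-1 and 3.83 in 24h-1. In the second it was 0.0802 in NT-2, 3.53 in 0.5h-2, 0.279 in 1h-2, 0.448 in 3h-2, 2.82 in 6h-2 and 0.310 in 24h-2. The extremes of the second time course were thus NT-2, where 4812 reads of 3p stood against 386 of 5p, and 0.5h-2, with 802 against 2828.

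For miR-30b the division followed the time course. The ratio was between 0.229 and 1.62 in the first and between 6.93 and 18.5 in the second, with no overlap. The 3p counts behind it were 8, 77, 29, 4, 5 and 83 in NT-1 to 24h-1, and 3, 3, 4, 7, 2 and 2 in NT-2 to 24h-2. At such counts a ratio is imprecise: the 95% Wilson interval of the 5p share in NT-1 ran from 40.9% to 79.2%, for 13 reads of 5p in 21. The ratio of miR-384 did not overlap between the time courses either. How many of all miRNAs separated in this way was not counted.

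On the log2 scale the ratio averaged 5.88 ± 1.06 for miR-30d, 3.04 ± 1.18 for miR-30a, 1.41 ± 2.38 for miR-30b, -0.21 ± 1.69 for miR-30e and -3.90 ± 2.01 for miR-30c (SD, n = 12). The family as a whole had more 5p than 3p counts in 11 of 12 libraries. NT-2 was the exception, with 0.898 reads of 5p per read of 3p. A moving ratio was common in these libraries. Of the 43 miRNAs that reached 10 counts on both arms in each library, 26 changed their major arm between libraries, and the SD of the log2 ratio had a median of 1.35. miR-30a and miR-30e were among the 43, at places 29 and 14 when ordered from the largest SD. miR-384, which shares the 5p seed, had more 3p than 5p counts in 12 of 12 libraries, with a log2 ratio of -3.57 ± 2.17. Its log2 ratio ran from -6.86 to -4.69 in the first time course and from -3.83 to -0.69 in the second.

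**Figure D2:**
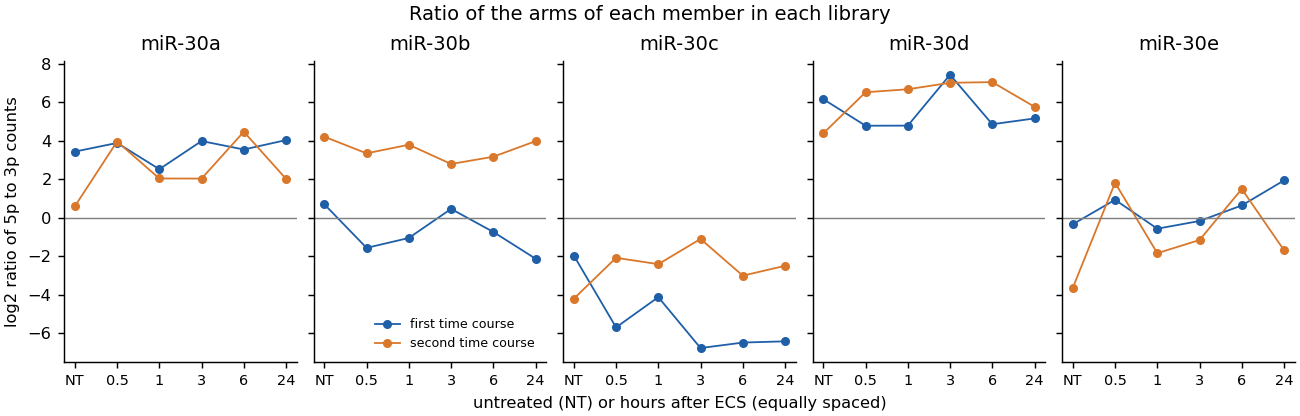
Log2 ratio of 5p to 3p counts of each member, 1 point per library, in the order untreated (NT) and hours after ECS, with a line for each time course. The time courses separate for miR-30b and cross for miR-30e, while miR-30d stays above 0 and miR-30c below 0 throughout.

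Over all libraries the 2 closest pairs came from the same side of different hairpins, but the order changed within the time courses. Over 12 libraries, which share depth and time course, Pearson's r of log2 CPM was 0.90 between miR-30a-3p and miR-30e-3p and 0.90 between miR-30a-5p and miR-30d-5p. It was 0.30 between the 2 arms of miR-30a, 0.24 between those of miR-30e and -0.55 between those of miR-30c. Over the 6 libraries of the first time course the closest pair was miR-30a-3p with miR-30c-5p (r = 0.97), from opposite sides, and over those of the second miR-30a-3p with miR-30e-3p (r = 0.999). The arms of miR-30e had an r of 0.78 in the first and -0.21 in the second, and miR-30a-5p with miR-30d-5p had 0.72 and 0.91.

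The pair of 3p arms was closest within the second time course. There miR-30a-3p had 1.55 reads per read of miR-30e-3p in NT-2, 1.57 in 0.5h-2, 1.63 in 1h-2, 1.46 in 3h-2, 1.65 in 6h-2 and 1.63 in 24h-2, although miR-30a-3p itself ranged from 138 to 1995 CPM there and miR-30e-3p from 83.2 to 1226 CPM. In the first time course the same quotient was 0.509 in NT-1, 1.65 in 0.5h-1, 1.03 in 1h-1, 1.76 in 3h-1, 0.788 in 6h-1 and 3.19 in 24h-1. On the log2 scale its SD was 0.068 in the second and 0.94 in the first time course (n = 6 each). The quotient of miR-30d-5p to miR-30a-5p was between 0.157 and 0.336 in the first and between 0.156 and 0.282 in the second.

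**Figure D3:**
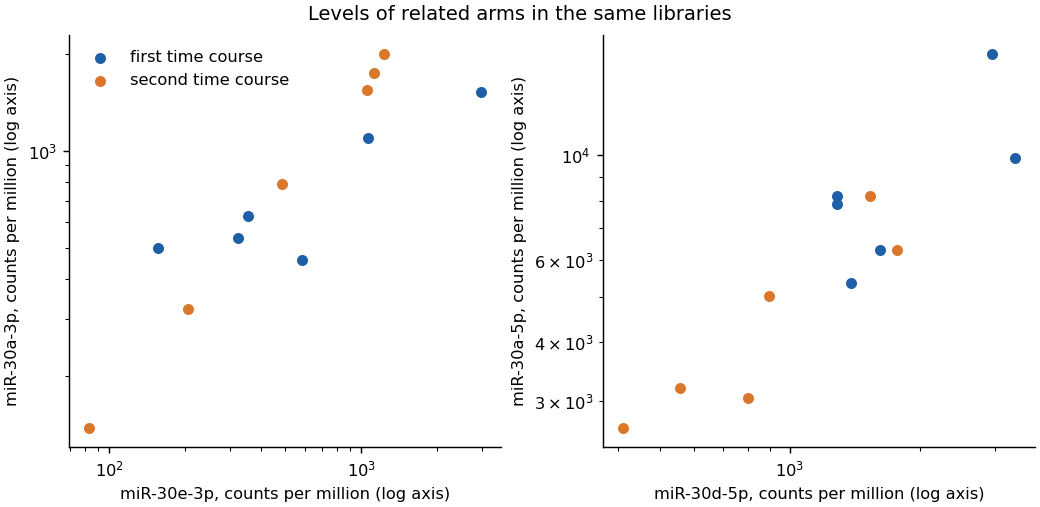
Level of miR-30a-3p against miR-30e-3p (left) and of miR-30a-5p against miR-30d-5p (right) in CPM, both axes logarithmic, 1 point per library. The 6 points of the second time course fall on a line for the 3p arms, with a quotient between 1.46 and 1.65, and those of the first scatter from 0.509 to 3.19.

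Since these arms differ at a single base, reads were examined for misreading between them. Tags of 19 to 22 nt from the main start of miR-30a-5p held 123613 exact reads. Those that differed only by C13T, and so equal miR-30e-5p, numbered 9348 or 7.56 per 100 exact reads. The most frequent of the other bases at that position gave 127 reads or 0.103 per 100. The single change that equals miR-30d-5p gave 20.1 per 100, and the most frequent of the other bases at its position 0.920. Over positions 1 to 18, the 52 other single changes had a median of 0.223 and a maximum of 3.73 per 100 (T3G). For the 3p arms the change G18A was found in 22258 reads beside 24440 of miR-30a-3p. The most frequent other base at that position was read at most 1.80 times per 100 exact reads in a library of the first time course and between 6.34 and 8.33 times in the second.

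The first comparison of the design asks whether the miRNAs of the hippocampus changed after ECS. No miR-30 arm was called at any of the 5 times or in their mean against untreated mice (edgeR's quasi-likelihood test, Benjamini-Hochberg adjusted p under 0.05, 10 arms among 469). Neither was any other arm: the share called was 0% in each of these 6 contrasts. The study holds it unlikely that these sequencing data measure changes accurately, because of the batch effect. By PCR arrays scaled to small noncoding RNAs, it reported that most miRNAs were lower at 12 h and 24 h after ECS. It also ran PCR of single miRNAs, and by its account the general trends held though some results diverged. These were other measurements than the libraries here, which include no 12 h time. The counts here are scaled to the miRNAs themselves, so a fall shared by most of them would not show. At an unadjusted p under 0.05 in the edgeR fit there were 9, 2, 10, 9 and 7 of the 469 arms from the earliest to the latest time and 24 in the mean, and of the miR-30 arms 1, 0, 0, 2, 0 and 1. That fit left the time course out. With the replicate number as a block, edgeR had 26, 12, 24, 32 and 24 arms under 0.05 unadjusted and 31 in the mean, and called 0. The estimates after ECS given below are from the fit without the block, so their SE takes in the spread between time courses. DESeq2 without the block called 1, 0, 2, 0 and 0 arms at these times and 1 in the mean, and 0 miR-30 arms. With the block, a fit added after the data were seen, it called 2, 0, 5, 3 and 0 arms and 1 in the mean, and 0 miR-30 arms.

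In the mean of the times the 3p arms of miR-30e and miR-30a had the lowest estimates. miR-30e-3p in the first time course was at 2985 CPM in NT-1, then 323, 1065, 356, 580 and 157 CPM from 0.5h-1 to 24h-1. In the second it was at 1124 CPM in NT-2, then 206, 1226, 1055, 83.2 and 483 CPM from 0.5h-2 to 24h-2. It was below the untreated library of its time course in 5 of 5 libraries of the first and 4 of 5 of the second. These counts of libraries, here and for miR-30a-3p below, are in CPM. The fit also uses edgeR's TMM factors, which align the bulk of the arms and were 0.912 for NT-2 and 0.667 for 3h-2. With them both 3p arms in 3h-2 would lie above NT-2. The fitted log2 difference of miR-30e-3p from untreated was -2.69 (SE 1.17) at 0.5 h, -0.84 (SE 1.11) at 1 h, -0.69 (SE 1.11) at 3 h, -2.57 (SE 1.17) at 6 h, -1.94 (SE 1.14) at 24 h and -1.75 (SE 0.76) in the mean of the times. The last had an adjusted p of 0.939 by edgeR's quasi-likelihood test. miR-30a-3p was also below in 5 of 5 and 4 of 5 libraries, with a mean difference of -1.05 (SE 0.74, adjusted p = 1.00 by edgeR).

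For miR-30a-5p and miR-30e-5p the time courses went opposite ways. All 5 ECS libraries of the first time course were below NT-1 for both arms, and all 5 of the second were above NT-2. Other arms had medians of opposite sign too. The libraries below the untreated one, first and second time course, were 4 and 0 for miR-30d-5p and 5 and 1 for miR-30c-5p. They were 0 and 4 for miR-30c-3p and 2 and 5 for miR-30d-3p. The medians of miR-30a-3p, miR-30b-5p, miR-30b-3p and miR-30e-3p kept their sign. The fitted mean differences were -0.12 (SE 0.73) for miR-30a-5p and -0.79 (SE 0.87) for miR-30e-5p. Without NT-1, where 71.4% of the 5p reads of the family were of 18 or 19 nt, they became 1.17 and 2.33. Over the 12 fits that left out 1 library they ranged from -0.79 to 1.17 and from -1.70 to 2.33. The part of the short reads in this was not tested. The other arms had mean differences between -0.06 and 1.54 on the log2 scale, the highest that of miR-30b-3p (SE 1.62). The SE was at least 0.73 in the mean of the times and at least 0.95 at a single time. On simulated counts of 2 against 2 libraries 41.8% of 6-fold changes were called, so a change of that size could be missed at a single time. The simulated counts held no difference between the time courses, which the real counts do, so this share may be too high for them.

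Many arms differed between the time courses. Between the second and the first, with time as a term in the fit, 152 of 469 arms were called (32.4%): 94 were higher in the second (20%) and 58 lower (12.4%). With libraries scaled to the total miRNA count in place of edgeR's TMM factors, which align the bulk of the arms, the split was 49 higher and 113 lower, and the median over all arms moved from 0.29 to -0.30 on the log2 scale.

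Of the 10 miR-30 arms 2 were called, and between 1 and 3 under the alternatives, beside the 32.4% of all arms. miR-30b-3p was lower in the second time course: its levels were 7.49, 43.9, 21.3, 2.66, 11.4 and 37.4 CPM in NT-1 to 24h-1 and 0.701, 0.770, 1.02, 1.69, 1.51 and 0.487 CPM in NT-2 to 24h-2. The highest library of the second time course was below the lowest of the first, as for 11.7% of all arms tested, while 2.77% were separated in the other direction. The log2 difference was -3.32 (SE 0.80, adjusted p = 0.00814, edgeR). miR-30c-5p was higher in the second time course, by 1.74 (SE 0.52, adjusted p = 0.0224, edgeR), with 84.3, 25.1, 74.2, 31.6, 20.5 and 15.8 CPM in NT-1 to 24h-1 against 35.4, 95.4, 137, 149.9, 32.5 and 59.0 CPM in NT-2 to 24h-2. Its time courses overlapped. Scaled to the total miRNA count it was 1.12 higher and not called (adjusted p = 0.131, edgeR), and it stayed called in only 3 of the 12 fits that left out 1 library, when 6h-1, NT-1 or NT-2 was left out.

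The other 8 arms did not pass. Their log2 differences, second against first, were -0.33 for miR-30a-5p, 0.91 for miR-30b-5p, -0.42 for miR-30d-5p and -0.74 for miR-30e-5p on the 5p side, and 0.74 for miR-30a-3p, -1.07 for miR-30c-3p, -1.12 for miR-30d-3p and 0.40 for miR-30e-3p on the 3p side. That of miR-30e-3p was -0.21 when libraries were scaled to the total. miR-30d-3p was nearest to the threshold (adjusted p = 0.0731, edgeR). The arms of miR-384 went opposite ways: miR-384-3p was lower, with a log2 difference of -1.94 (SE 0.52, adjusted p = 0.0130, edgeR), and miR-384-5p higher, with 1.73 (SE 0.58, adjusted p = 0.0339, edgeR). The call of miR-384-5p was lost in 9 of the 12 fits that left out 1 library (all but those without 6h-1, NT-1 or NT-2, adjusted p up to 0.160, edgeR), when scaled to the total (1.11, adjusted p = 0.177, edgeR) and with tags that match 1 miRNA (adjusted p = 0.0623, edgeR). That of miR-384-3p held in 12 of 12 such fits and was lost with tags of at least 20 nt (-1.32, adjusted p = 0.0860, edgeR). The share of the vessel list, nearly all of it miR-143, differed between the time courses as well. So did that of 18 or 19 nt reads, and their part in these results was not tested.

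The tags of an arm differed most at the 3′ end. The 4 most abundant forms of miR-30a-5p are shown, as deposited, because they began at the same base and ended at different ones (seed in capitals).
19 nt: tGTAAACAtcctcgactgg
20 nt: tGTAAACAtcctcgactgga
21 nt: tGTAAACAtcctcgactggaa
23 nt: tGTAAACAtcctcgactggaagc
They held 27055, 30442, 54477 and 40549 reads. The 19 nt form supplied 12776 of its reads in NT-1 alone. Tags of 23 nt were rare in the first time course. In the second they made up 35.0% ± 10.2 of the reads of the arm, against 0.574% ± 0.285 in the first (SD, n = 6 each).

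Reads of the family were shorter in the first time course, as were miRNA reads in general. Of all miRNA reads 4.54% to 51.4% were of 18 or 19 nt in the first and 0.911% to 3.78% in the second. Summed over the 5p arms, 71.4% of the reads were of 18 or 19 nt in NT-1 and 10.1% to 28.5% in the other libraries of the first time course, against 1.26% to 7.10% in the second. Summed over the 3p arms, it was 90.4% in NT-1 and 12.9% to 28.9% in the others, against 3.94% to 9.88%. In each of the 6 pairs of libraries of a time point the second had the lower share, by 25.6 percentage points on average for 5p and 26.8 for 3p. An exact permutation test that swapped the libraries of a pair, in all 64 ways and read from both sides, gave p = 0.031 for each, its smallest possible value, and an adjusted p of 0.0375 over 6 such tests. Without the untreated pair the differences were 17.8 and 15.0 points. The Wilson interval of a share was at most 2.90 points wide for 5p and 4.82 for 3p.

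The length of the mature miR-30a-5p in RefSeq, 22 nt, was on average the least used length from 19 to 23 nt in the second time course. Exact tags of 22 nt made up 1.39% ± 0.411 of the arm there (1455 reads), while those of 21 nt made up 38.4% ± 7.62 (SD, n = 6). miR-30d-5p and miR-30e-5p had the same gap, with 0.652% ± 0.264 and 0.922% ± 0.489 at 22 nt. In the first time course 22 nt tags held 11.5% ± 13.7 of miR-30a-5p. miR-30b-5p, by contrast, had 79.5% ± 6.15 of its reads at 22 nt in the second time course, from 197 reads, and miR-30c-5p was longest, with 45.2% ± 27.9 at 24 nt.

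**Figure D4:**
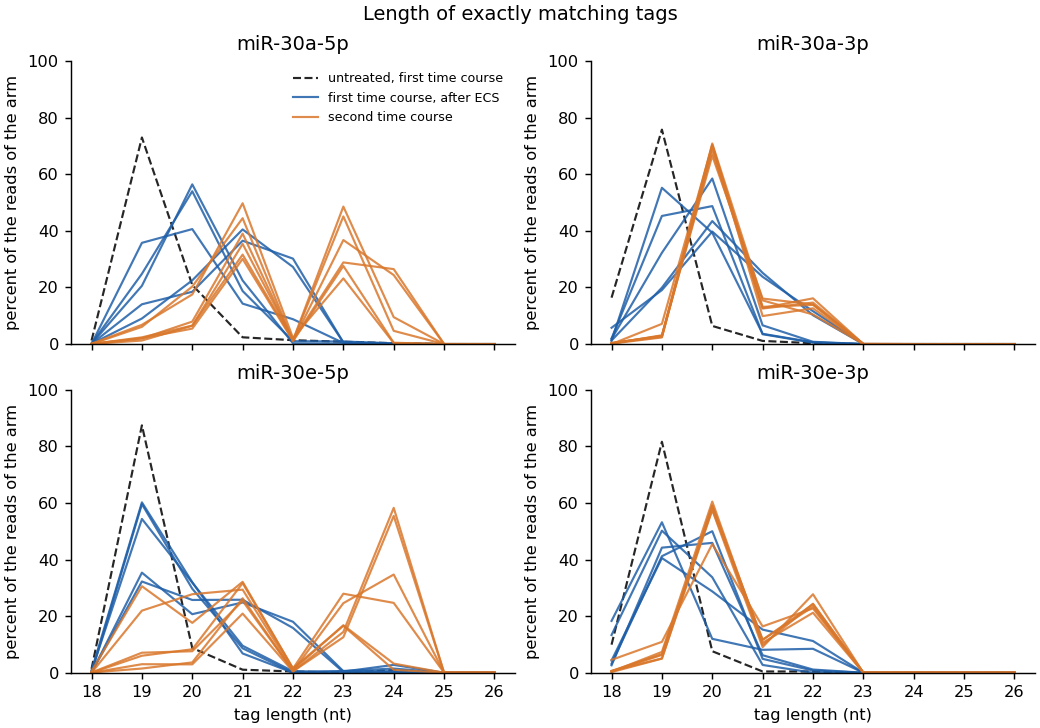
Share of the reads of an arm by tag length for both arms of miR-30a and miR-30e, 1 line per library, with the untreated library of the first time course dashed. That library peaks at 19 nt in all 4 panels, and the 5p arms of the second time course dip at 22 nt between peaks at 21 nt and at 23 or 24 nt.

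Exact matching leaves out reads with a base that the hairpin does not hold, so tags with 1 such base after an exact match were counted apart. These 5p reads were frequent in the second time course and mostly ended in A. An extra A was found 17.1 ± 7.35 times per 100 exact reads on miR-30a-5p, 31.3 ± 9.14 on miR-30d-5p and 26.4 ± 13.0 on miR-30e-5p in the second time course, against 1.62 ± 1.43, 1.79 ± 1.59 and 1.59 ± 0.776 in the first (SD, n = 6 each). For each of these 3 arms every library of the second was above every library of the first. How many single arms of other miRNAs separated in this way was not counted. miR-30c-5p and miR-30b-5p did not share this, at 3.98 ± 2.79 and 0.654 ± 1.60 in the second. Pooled over the 5p arms of all other miRNAs, an extra A was found 4.0 times per 100 exact reads in the first and 2.87 in the second time course.

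The A followed the 22 nt form above all. On miR-30a-5p, 14964 of the reads with an extra A in the second time course had it after 22 exact bases, more than the 1455 exact reads of 22 nt. The same held for miR-30d-5p (5457 and 125 reads) and miR-30e-5p (1816 and 49 reads). An added base and a changed last base give the same tag and cannot be told apart here. The authors removed the 3′ adapter before they deposited the tags, and its sequence is not given in the sources used here, so whether the A is a leftover of the adapter was not tested. This limits what the extra A and the gap at 22 nt show about the RNA itself.

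The 3p arms of miR-30a and miR-30e more often ended in an extra T, the letter for U in the tags, than in an extra A (4944 against 1190 reads and 4080 against 534). The other 3p arms did not: miR-30c-3p had 366 reads with a T and 1079 with an A, miR-30d-3p 31 and 69, and miR-30b-3p 18 and 20. The extra T was found 12.4 ± 3.57 times per 100 exact reads on miR-30a-3p in the first and 15.3 ± 1.82 in the second time course, and 12.4 ± 3.02 and 19.4 ± 2.36 times on miR-30e-3p (SD, n = 6 each). miR-30c-3p had 1.79 ± 1.43 and 2.26 ± 0.791. Over the 3p arms of all other miRNAs it was found 3.35 times in the first and 5.54 in the second.

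Counting A and T jointly, the summed 5p arms had 5.69 ± 1.03 such reads per 100 exact reads in the first and 21.8 ± 7.16 in the second time course. The summed 3p arms had 9.84 ± 2.11 and 17.2 ± 3.14 (SD, n = 6 each). Both were higher in the second library of all 6 pairs (the same exact permutation test, p = 0.031 each, adjusted p = 0.0375). On the 3p arms of all other miRNAs an extra A was also more frequent in the second, at 5.72 against 3.47 per 100, as was an extra T. On their 5p arms both were rarer in the second, the extra T at 1.54 against 7.20.

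**Figure D5:**
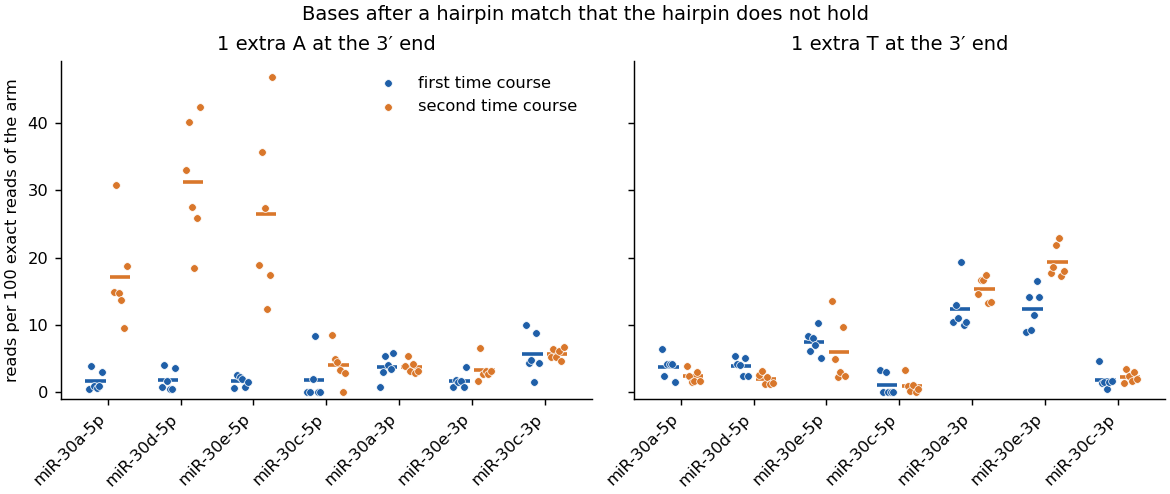
Reads with 1 extra A (left) or T (right) after an exact match, per 100 exact reads of the arm, 1 point per library and a bar at the mean of the 6 libraries of a time course. The extra A is high on the 5p arms of miR-30a, miR-30d and miR-30e in the second time course, and the extra T is highest on the 3p arms of miR-30a and miR-30e among the arms drawn. The arms of miR-30b and miR-30d-3p, which have few reads, are not drawn.

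The 5′ end, which sets the seed, was fixed on the 5p side and looser on the 3p side. Summed over the 5p arms, 99.2% to 99.9% of the reads began at the main start in the first time course and 98.5% to 99.1% in the second, lower in all 6 pairs and by 0.782 percentage points on average (the same exact permutation test, p = 0.031, adjusted p = 0.0375). Over all libraries every 5p arm had at least 97.4% of its reads at its main start. In single libraries the share went down to 94.9% for miR-30e-5p (1h-2) and to 66.7% for miR-30b-5p (6h-1, 3 reads). Summed over the 3p arms the share was 85.3% to 94.7% in the first and 83.2% to 88.7% in the second, lower in 5 of 6 pairs (the same exact permutation test, p = 0.0938, adjusted p = 0.0938).

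Over all libraries miR-30a-3p was the loosest arm, with 75.5% of its reads at the main start, against 83.5% for miR-30d-3p and 92.7% for miR-30c-3p. In NT-1 its share was 80.6%, above the 31.8% of miR-30d-3p (44 reads) and the 58.1% of miR-30c-3p (351 reads). The forms of miR-30a-3p that began at its first 2 positions are shown because the shift moves the seed by a base, as the capitals mark.
main start: cTTTCAGTcggatgtttgca
1 base later: tTTCAGTCggatgtttgcag
They held 14759 and 5810 reads, and in all 24.2% of the reads of miR-30a-3p began 1 base later. The share at the main start ranged from 42.1% in 3h-1 (95% Wilson interval 39.0% to 45.3%) to 89.1% in 6h-1 (84.0% to 92.7%). miR-30e-3p, alike up to the base before the difference G18A, had 98.0% of its reads at the main start and 1.54% a base later.

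The 3 arms outside the family whose log2 CPM was most like that of the summed miR-30 5p arms over the 12 libraries, among the 205 that reached 10 counts in each of them, were miR-181a-3p (Pearson's r = 0.85), miR-134-5p (r = 0.79) and miR-9-5p (r = 0.76). The likeness differed between the time courses: r was 0.92, 0.91 and -0.20 over the 6 libraries of the first and 0.59, 0.42 and 0.84 over those of the second.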

How the data were processed

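Small RNA of the mouse hippocampus was measured in 12 libraries, 2 in each of 6 groups. The authors isolated RNA of about 18 to 25 nt by gel electrophoresis, cloned it with the Illumina small RNA kit, sequenced it on a Genome Analyzer IIx and removed the 3′ adapter, and they deposited the raw count of reads for every distinct tag of each library, neither aligned nor normalized. Their own alignment used NCBI assembly 37, which was not used here, and coordinates are those of GRCm38. Samples were grouped by their titles, and the replicate number gives the time course.

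A tag was counted for a miRNA arm when it matched a named hairpin of GENCODE M21 over its whole length. A tag that matched several miRNAs was divided equally between them. Reads with errors or added bases are lost by this rule, and PCR duplicates cannot be recognised, so intervals cover counting error only. Only arms that reached 10 counts in 2 or more libraries were tested, with edgeR 4.0.16 (R 4.3.3, TMM factors, quasi-likelihood test, Benjamini-Hochberg adjusted p under 0.05), with the 6 groups in the fit for ECS, and with time plus time course for the comparison of time courses. The groups of 2 share the replicate number, and per the study this number marks a batch. Departures from the group means in libraries of 1 number correlated at 0.31 to 0.78 over the 15 pairs of groups, so a replicate block was fitted as an alternative. All 66 pairs of libraries differed beyond counting noise (chi-square per degree of freedom at least 39.3). On simulated counts with 6-fold changes, the same fit of 6 against 6 libraries called 166 of 180 changed arms and 1 unchanged arm among 469 arms of real levels. With 2 against 2 it called 79 of 189 and 5 unchanged. The simulated spread came from a fit with time course as a term, and no difference between time courses was simulated. The share found with 2 against 2 may thus be too high for the fit for ECS, which has no such term. DESeq2 1.42.0 and other scalings, filters and matching rules were alternatives. Each library is from 1 mouse.

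The family, the lists and the tests were chosen with earlier results of these data known. Every arm of miR-30a to miR-30e is named, with other arms of the same seed and the 3 arms most alike in level. Sequences of mature miRNAs are from RefSeq, where 5 of the 7 loci of the family and miR-384 were matched.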

Additional observations from a re-analysis of the deposited data

Results flagged for a closer look

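In NT-1, 71.4% of the 5p reads of the miR-30 family and 90.4% of the 3p reads were of 18 or 19 nt, which put that library far from the other 5 of the first time course (10.1% to 28.5% and 12.9% to 28.9%). In 6h-2, 9.88% of the 3p reads were that short, against 3.94% to 4.75% in the other 5 libraries of the second time course. These 2 libraries stood out in 3 of the 42 groups of 6 examined, where chance alone gives about 1 in 20, or 2.1 groups.

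miR-30a-5p lay below the untreated library in all 5 ECS libraries of the first time course and above it in all 5 of the second, with mean differences of -1.16 and 0.87 on the log2 CPM scale. miR-30e-5p did the same, at -1.98 and 1.89. miR-30d-5p came near this, with 4 libraries below in the first and 0 in the second, as did miR-30c-5p, with 5 and 1. miR-30c-3p, with 0 and 4, and miR-30d-3p, with 2 and 5, went the other way. All these are in CPM, and with the TMM factors of the fit miR-30a-5p in 3h-1 would lie above NT-1. With 1 untreated library in each time course the difference between the time courses was not tested. NT-1 and NT-2 serve as the reference for each set of 5, and NT-1 is the library with the short reads.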

How the results depend on the processing

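The count of miR-30 arms called after ECS was 0 under every alternative run, with the replicate block (0 at each time and in the mean), with DESeq2, and without any single library. The count for the second against the first time course was 2, between 1 and 2 when 1 library was left out, and 2 or 3 under the other alternatives. miR-30d-3p was added by RLE factors, total-count scaling, DESeq2 and tags that match 1 miRNA, miR-30c-3p by total-count scaling and miR-30a-3p by tags of at least 20 nt. Over all arms 152 were called, 92 without 1h-1. miR-30b-3p was called in 12 of 12 such leave-out fits and miR-30c-5p in 3. With 1 time point left out, the difference between time courses ranged from -29.1 to -17.8 percentage points for 5p reads of 18 or 19 nt, from -30.4 to -15.0 for 3p, from -0.847 to -0.679 for the main 5p start, from 13.7 to 17.3 per 100 for an extra A or T on 5p and from 5.62 to 8.74 on 3p. With 5 pairs the smallest p is 0.0625, so these say nothing about the threshold.

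Changes of sign were seen in log2 differences that no fit called. Between the time courses miR-30e-3p was -0.21 scaled to the total count and -0.15 to 0.81 with a library left out, and miR-30e-5p was 0.047 with tags of at least 20 nt. For the mean after ECS, leaving out a library gave -0.79 to 1.17 for miR-30a-5p, -0.44 to 0.42 for miR-30b-5p, -0.14 to 0.76 for miR-30c-5p, -0.52 to 1.64 for miR-30d-5p, -0.32 to 0.16 for miR-30d-3p and -1.70 to 2.33 for miR-30e-5p. With tags of at least 20 nt it was 0.0089 for miR-30a-5p, -0.52 for miR-30d-5p, 0.42 for miR-30d-3p and 0.21 for miR-30e-5p. Scaled to the total count it was -0.077 for miR-30c-5p and -0.32 for miR-30d-5p, and with tags that match 1 miRNA -0.13 for miR-30d-5p. With the replicate block it was -0.26 for miR-30c-5p, and -0.30 with the block in DESeq2, an alternative added after the data were seen. The cause was not tested. The share held by the family and the 5p to 3p ratios moved by less than the SD between libraries. Counted by the first 18 nt, miR-30b-5p and miR-30c-5p cannot be separated, so their ratios have no value there. miR-30b-5p and miR-30b-3p rest on 320 and 227 counts in all, which limits what can be said of them.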
